A study of Mus musculus with 8 samples.

Results

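The lysosomal genes described here are 46 genes for enzymes, membrane proteins and regulators of the lysosome, taken as a fixed list by gene symbol and followed over 24 h of culture at 39 °C. Of the 46, 44 were found among the 12393 genes that probe sets with 1 gene symbol name on the array, by 77 probe sets, and 21 of them by more than 1. For the other 2, Arsb and Cd63, no signal was analysed here. The genes were measured in TTE3, a Sertoli cell line from the testis of transgenic mice. Its cells carry a large T-antigen of simian virus 40 that is temperature-sensitive, so all groups share this transgene and 39 °C is the nonpermissive temperature for it. Total RNA was hybridised to Affymetrix Mouse Expression Array 430A chips after 0, 6, 12 and 24 h, with 2 arrays per time and 8 in all. The labels name no strain, promoter of the transgene, or separate cultures behind the 2 samples of a time, and p-values here cover no more than the spread of these samples, which may be technical. Time in culture, time at 39 °C and loss of T-antigen function run together in this design and cannot be told apart. No sample of a later time at another temperature is among the 8.

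Lysosomes are the acidic organelles in which proteases, glycosidases, sulfatases and lipases break down material delivered by endocytosis and autophagy. A proton pump, the V-ATPase, keeps their lumen acidic, and heavily glycosylated membrane proteins line the wall. Many genes of the organelle are known targets of the transcription factor TFEB and its relatives, which bind an E-box in their promoters. In the testis, Sertoli cells use lysosomes to digest the residual bodies shed by maturing spermatids and apoptotic germ cells.

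The RefSeq promoter table (GRCm38.p6) reaches from 250 bases before to 50 bases after each RefSeq start, and it held windows for 41 of the 46 genes. It held none for Ctsb, Ctsh, Npc1, Asah1 and Atp6v1h. The E-box CACGTG, which is its own reverse complement, lay in a window of 14 of these 41 genes (34.1%), against 1068 of the 9882 genes on the array with a window (10.8%) and 2187 of all 27025 genes of the table (8.09%). The longer form GTCACGTG, searched on both strands and always containing the E-box, lay in 12 of the 41 (29.3%), against 400 of the 9882 (4.05%) and 689 of the 27025 (2.55%). Per window of 300 bases the shares were 25.5% of the 47 windows of the listed genes and 2.25% of all 32851 windows for the longer form. Shown here are the stretches around the longer form in 8 genes whose signal was higher at 24 h. Each has up to 30 bases on either side and ends before a RefSeq start of the gene. Capitals mark the longer form, read on either strand, and further copies of the E-box alone stay in lower case.
Ctsa: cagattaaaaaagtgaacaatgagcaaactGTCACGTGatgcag
Ctsd: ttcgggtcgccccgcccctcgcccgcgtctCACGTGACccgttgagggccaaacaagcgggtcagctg
Lgmn: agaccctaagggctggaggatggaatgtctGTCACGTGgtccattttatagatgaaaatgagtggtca
Glb1: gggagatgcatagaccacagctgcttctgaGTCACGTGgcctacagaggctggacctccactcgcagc
Naglu: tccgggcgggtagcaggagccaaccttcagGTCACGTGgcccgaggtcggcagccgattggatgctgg
Arsa: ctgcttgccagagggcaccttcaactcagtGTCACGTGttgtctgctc
Lamp1: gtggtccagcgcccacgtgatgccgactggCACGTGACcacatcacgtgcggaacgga
Mcoln1: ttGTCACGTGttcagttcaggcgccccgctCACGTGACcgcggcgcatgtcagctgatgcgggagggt

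In GRCm38.p6 the stretches lie at chr2:164833729-164833772 (plus strand) for Ctsa, chr7:142387888-142387955 (minus strand) for Ctsd, chr12:102439106-102439173 (minus strand) for Lgmn and chr9:114400998-114401065 (plus strand) for Glb1. Those of Naglu, Arsa, Lamp1 and Mcoln1 lie at chr11:101069989-101070056 (plus strand), chr15:89477425-89477472 (minus strand), chr8:13159103-13159160 (plus strand) and chr8:3500444-3500511 (plus strand), in that order. Each lies just upstream of a RefSeq start. Ctsa and Lgmn have another start further upstream, with windows at chr2:164832622-164832921 and chr12:102439679-102439978. Those windows hold neither form, and the stretches shown for these genes lie downstream of that other start. Mcoln1 holds the longer form in both orientations, and Lamp1 holds it once beside further E-boxes. Of the 20 genes with a window that were higher at 24 h, 10 held the E-box and 9 the longer form. Of the 15 tested and not called higher, 3 and 2 did, and of the 4 that were too dim to test, 1 and 1. Those with the longer form were Gla and Sgsh, not called higher, and the dim Cln3, and their stretches are not shown. These are matches of letters, and the differences between the shares were not tested.

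**Figure D1:**
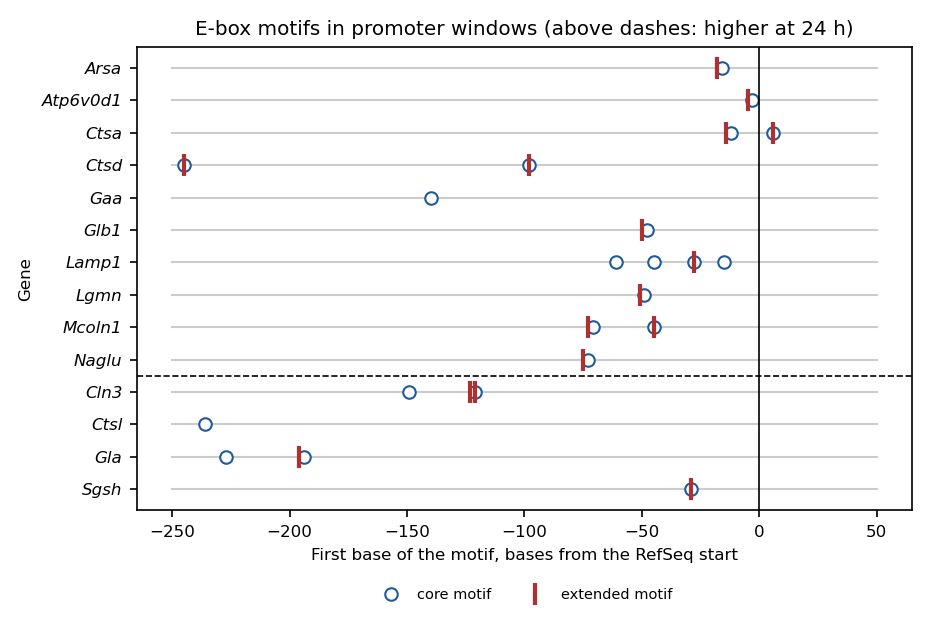
Distance of each E-box (open circles) and each longer form (red bars) from the RefSeq start of its window, in bases, for the 14 genes that hold one. The 10 genes above the dashed line were higher at 24 h, and most marks lie within 100 bases before the start.

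Of the 44 genes, 5 were too dim to test. Values are probe set signals in units scaled by the depositors, and log2 changes are of signal plus an offset of 21.9 units, which understates changes of dim genes. Probe sets with a mean under 6.58 on that log2 scale, about 74 units, were left out, and the brightest probe set stands for a gene. Cathepsins C, H, K and S (Ctsc, Ctsh, Ctsk, Ctss) and the membrane protein gene Cln3 fell under it, with signals between 1.5 and 66.9 units over all 8 arrays. Ctsc ran from 1.5 to 32.4 units, Ctsh from 22 to 55.9, Ctsk from 5.7 to 57.4, Ctss from 3.4 to 66.9 and Cln3 from 3.8 to 47.5. The remaining 39 genes were tested in 1 fit of all 8 arrays with limma, adjusted by Benjamini-Hochberg over 13576 probe sets and called at an adjusted p under 0.05. In bulk RNA, fewer cells with a transcript and less of it per cell cannot be told apart, and the common scaling of the arrays hides any change in total mRNA per cell.

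By 24 h most of the tested lysosomal genes were higher than at 0 h. Of the 39, 22 were higher (56.4%), beside 18.6% of all 7707 tested genes, and 1 was lower, beside 16.6%. Their median log2 change was 0.355, and that of all tested genes was 0.018. The 22 rises were modest, from 1.25-fold to 2.41-fold with a median of 1.49-fold. In each of the 22, both 24 h arrays lay above both 0 h arrays. The 24 h arrays lay above both 0 h arrays in 30 of the 39 genes and below both in 2, called or not. The same was not counted over all tested genes, so these 2 counts have no share to be set beside. With arrays centred on their medians, which moved the median change of all genes by over 0.1 to -0.0856, 14 were higher (13.8% of all genes) and 1 lower (21.9%), and the listed genes' median was 0.252. Without the dimmer probe sets (mean at or above the 60th percentile), 18 of 32 were higher beside 21.4% of all genes. Without 0 h replicate 1 the count was 12 (11.6% of all genes), and without 24 h replicate 1 or 2 it was 13 (11.7% and 11.6%).

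At 6 h no such rise was called. At that time 1 gene was higher (9.15% of all genes) and 4 were lower (9.33%), and the median change of the list was -0.064. At 12 h, 10 were higher (13.3% of all genes) and 1 lower (12%), with a median of 0.156. Centred arrays gave 7 higher (10.7% of all genes) and 4 lower (14.5%) at 12 h, and quantile normalization 9 (13.2%) and 3 (11.8%). Without a 0 h or a 12 h array fewer were called higher at 12 h, in the list and among all genes, with list medians of 0.128 to 0.164. Without a 0 h array fewer were also called lower at 6 h, in the list and among all genes. Of the 22 genes higher at 24 h, 1 was already called at 6 h and 10 at 12 h, and 9 had a 6 h mean below their 0 h mean. In 12 of the 22 the means stood in the order 0, 6, 12 and 24 h. All 3 comparisons share the 0 h arrays. In limma's F-test for any difference among the 4 times, 23 of the 39 changed (59%), beside 42% of all genes, and fewer of the 39 did without either 24 h array. Of the genes higher at 24 h, the F-test did not call Lgmn, Naglu, Npc1 and Lamp1 (adjusted p = 0.066, 0.0576, 0.105 and 0.0573).

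**Figure D2:**
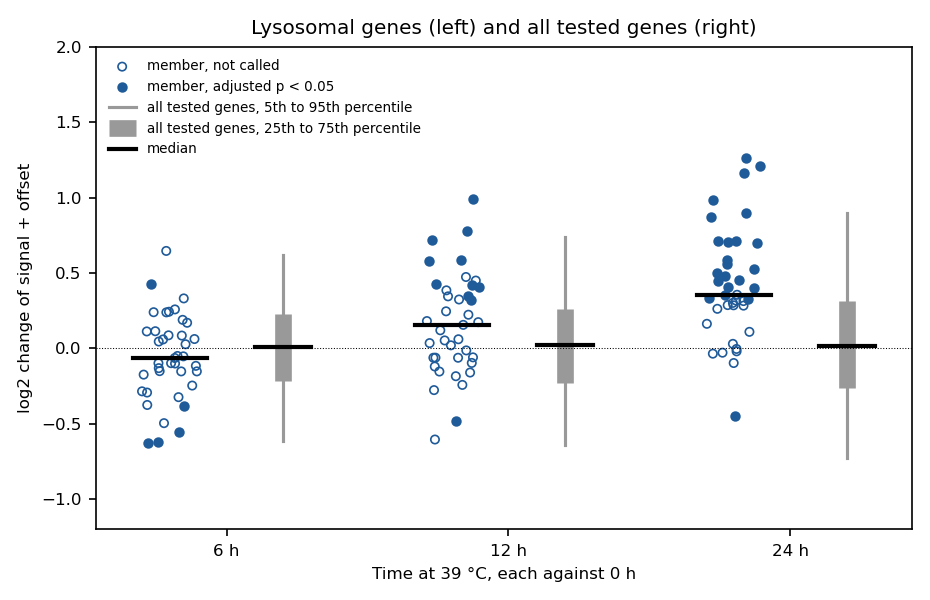
Log2 change of signal plus offset against 0 h (y axis) at 6, 12 and 24 h (x axis) for the 39 tested lysosomal genes (points, filled where adjusted p is under 0.05) and, to their right, for all 7707 tested genes (box from the 25th to the 75th percentile, line from the 5th to the 95th). Black bars are medians: for the lysosomal genes -0.064, 0.156 and 0.355, with the one at 24 h above the 75th percentile of all genes (0.312).

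**Figure D3:**
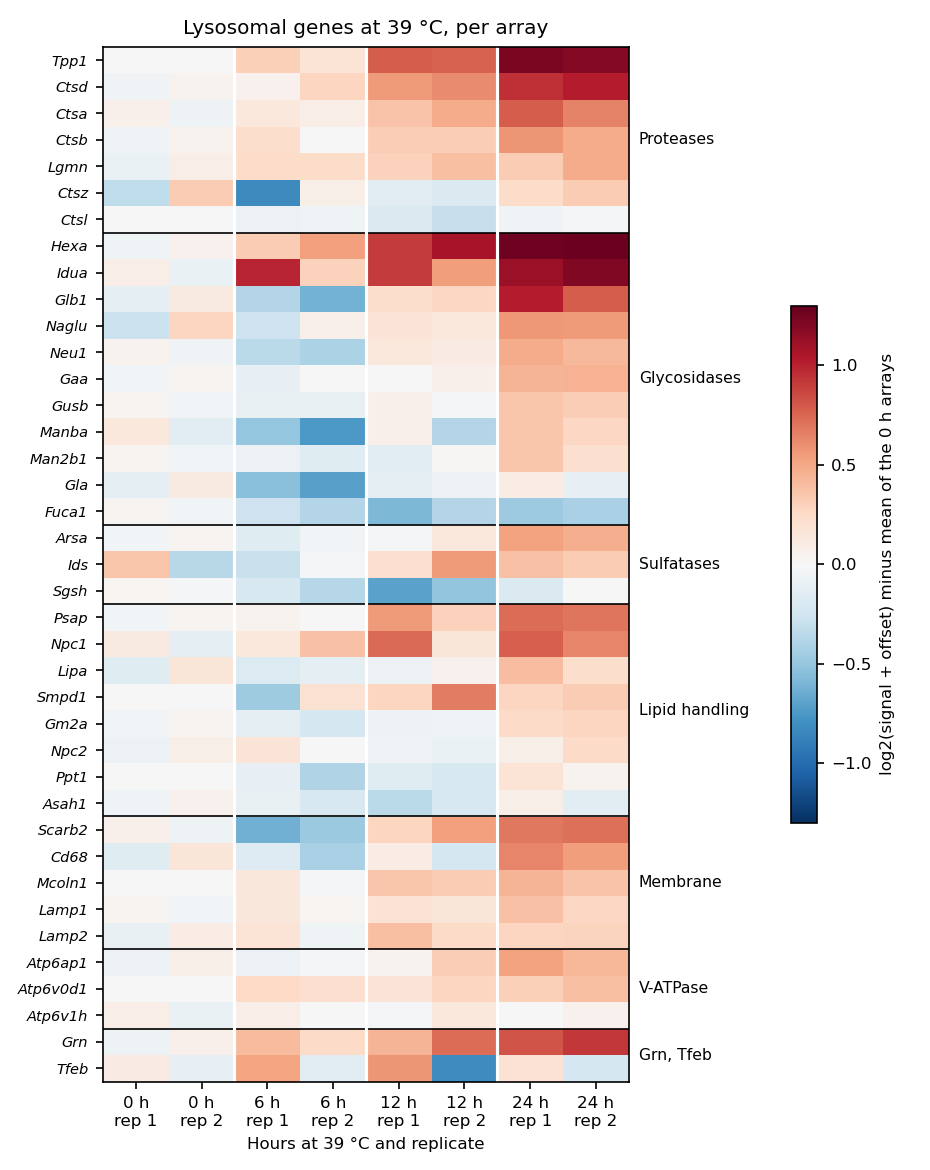
Log2 of signal plus offset minus the mean of the 0 h arrays (colour, red higher) for the 39 tested genes (rows, by role and then by the 24 h change) in each of the 8 arrays (columns). Red fills the 24 h columns in most rows, the glycosidases and Scarb2 hold much of the blue at 6 h, and Fuca1 is blue at all later times.

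Among the proteases, 5 of 7 tested genes rose by 24 h (71.4%, beside 18.6% of all genes) and 4 by 12 h (57.1%, beside 13.3%). At 6 h limma called 0, beside 9.15% higher and 9.33% lower of all genes (1 higher and 0 lower at an unadjusted p under 0.05). The steepest was Tpp1, tripeptidyl peptidase 1, which clips tripeptides from the ends of peptides. Its signal was 2439.8 and 2426 units at 0 h, 3020.3 and 2751 at 6 h, 4213 and 4167 at 12 h and 5707 and 5594.5 at 24 h. The 2 arrays of each time lay close together, and each time stood above the one before in this brightest probe set. The log2 change at 24 h was 1.21 ± 0.089 (adjusted p = 4.42e-06), with the SE of the fit after ±, a 2.31-fold rise, and at 12 h it was 0.78 ± 0.089 (adjusted p = 0.00018). Its second probe set was higher at 24 h (0.57 ± 0.12, adjusted p = 0.00317). It was not called at 12 h (0.31 ± 0.12, adjusted p = 0.0791). At 6 h both of its arrays lay below 0 h, also uncalled (-0.19 ± 0.12, adjusted p = 0.284).

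Ctsd encodes cathepsin D, the main aspartic protease of the organelle. Its signal was 2698 and 2868.5 units at 0 h, 2898 and 3384 at 6 h, 4096 and 4273 at 12 h and 5409.8 and 5670.5 at 24 h, and the 12 h and 24 h arrays lay above all 4 earlier ones. The log2 change was 0.58 ± 0.10 (adjusted p = 0.0018) at 12 h and 0.99 ± 0.10 (adjusted p = 3.48e-05) at 24 h. Cathepsin A (Ctsa) is a carboxypeptidase that also holds beta-galactosidase and neuraminidase 1 in a complex and protects them. Ctsa measured 2149 and 1968 units at 0 h, 2257 and 2192 at 6 h, 2673 and 2886 at 12 h and 3568 and 3219 at 24 h, with every later pair above the 0 h pair. It rose by 0.43 ± 0.098 (adjusted p = 0.00925) at 12 h and by 0.71 ± 0.098 (adjusted p = 0.000277) at 24 h on the log2 scale.

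Of the cysteine protease genes, Ctsb and Lgmn were higher at 24 h. Cathepsin B (Ctsb) had 3406 and 3637 units at 0 h, 4125 and 3518 at 6 h, 4387 and 4405 at 12 h and 5237 and 4923 at 24 h, with the 6 h arrays straddling the 0 h arrays. Its log2 change was 0.32 ± 0.10 (adjusted p = 0.0393) at 12 h and 0.53 ± 0.10 (adjusted p = 0.00223) at 24 h. A second bright probe set gave 0.55 ± 0.11 (adjusted p = 0.00335) at 24 h, while 2 dim ones, at 126 to 197 units in the 24 h arrays and 144 to 247 in the 0 h arrays, were not called. Their changes were negative at 12 h (-0.39 and -0.22) and at 24 h (-0.07 and -0.03). Legumain (Lgmn), an asparaginyl endopeptidase that also processes cathepsins, had 419.5 and 477 units at 0 h, 533 and 531 at 6 h, 556 and 593.5 at 12 h and 566 and 632.5 at 24 h. Every later array lay above both 0 h arrays, and the 24 h change was 0.40 ± 0.12 (adjusted p = 0.0246). Cathepsin L (Ctsl), with 6281 and 6444 units at 24 h and 6491 and 6494 at 0 h, was not called, with a 24 h change of -0.03 ± 0.087 (adjusted p = 0.835). Cathepsin Z (Ctsz) was not called either, and its 0 h arrays, at 1970.3 and 3109 units, overlapped every later time. The protease calls that ended on leaving out 1 array were Lgmn at 24 h without either 24 h array or 0 h replicate 1 (adjusted p = 0.0537 to 0.188), Ctsa at 12 h without 0 h replicate 2 or 12 h replicate 2 (adjusted p = 0.0664 to 0.0997) and Ctsb at 12 h without any array of 0 h, 12 h or 24 h (adjusted p = 0.0628 to 0.234).

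The glycosidases trim sugars from glycoproteins, glycolipids and glycosaminoglycans. At 6 h 1 of the 11 was higher (9.09%, near the 9.15% of all genes) and 3 were lower (27.3%, beside 9.33%). By 24 h 7 were higher (63.6%, beside 18.6%) and 1 lower (9.09%, beside 16.6%). The one that rose at every later time was Hexa, the alpha subunit of beta-hexosaminidase, with 1119.6 and 1203 units at 0 h, 1459.9 and 1687 at 6 h, 2201 and 2459.7 at 12 h and 2814 and 2831 at 24 h. No 2 times overlapped. Its log2 change was 0.43 ± 0.11 (adjusted p = 0.0177) at 6 h, 0.99 ± 0.11 (adjusted p = 0.000119) at 12 h and 1.27 ± 0.11 (adjusted p = 9.96e-06) at 24 h, the last a 2.41-fold rise.

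Iduronidase (Idua), which cuts iduronic acid from heparan and dermatan sulfate, also stood above 0 h in every later array. Its signal was low, 108 and 92.8 units at 0 h, 221 and 129 at 6 h, 207 and 156 at 12 h and 244 and 260.3 at 24 h, and the 6 h arrays differed widely. The log2 change was 0.72 ± 0.23 (adjusted p = 0.0436) at 12 h and 1.16 ± 0.23 (adjusted p = 0.00298) at 24 h, and its second probe set gave 1.09 ± 0.29 (adjusted p = 0.0146) at 24 h. Naglu, which acts on heparan sulfate too, had 196 and 299 units at 0 h, 197 and 255 at 6 h, 275.5 and 269.8 at 12 h and 370.3 and 366 at 24 h. Its 0 h arrays lay far apart, and the 24 h change of 0.56 ± 0.19 (adjusted p = 0.0425) was close to the threshold. Gusb, beta-glucuronidase, had 1628 and 1544 units at 0 h, 1477 and 1481 at 6 h, 1662 and 1555 at 12 h and 2037 and 1978 at 24 h. The 24 h arrays lay above the other 6 and the 6 h arrays below them, and at 24 h the change was 0.34 ± 0.093 (adjusted p = 0.0173), with 0.49 ± 0.13 (adjusted p = 0.0122) in its second probe set.

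Glb1 and Neu1 had their lowest signal at 6 h and were higher by 24 h. Glb1 encodes beta-galactosidase, the enzyme behind the senescence-associated beta-galactosidase stain. Its signal was 201 and 240.4 units at 0 h, 164 and 136 at 6 h, 261 and 269 at 12 h and 469 and 394 at 24 h, so the 6 h arrays were the lowest and the 24 h arrays the highest of the 8. The 6 h dip (-0.50 ± 0.16, adjusted p = 0.0545) was not called, and the 24 h change was 0.90 ± 0.16 (adjusted p = 0.0015). Neuraminidase 1 (Neu1), the sialidase, had 476 and 446 units at 0 h, 356 and 340.2 at 6 h, 507 and 497 at 12 h and 652 and 626 at 24 h, with the same order of times. It was lower at 6 h (-0.38 ± 0.11, adjusted p = 0.0394) and higher at 24 h (0.45 ± 0.11, adjusted p = 0.0103).

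Gla and Manba fell at 6 h as well, and neither was called at 24 h. Gla, alpha-galactosidase A, had 439.7 and 519 units at 0 h, 320.3 and 284 at 6 h, 436 and 455 at 12 h and 513 and 442 at 24 h. Only its 6 h arrays stood apart, at a log2 change of -0.63 ± 0.14 (adjusted p = 0.01), and at 24 h the change was -0.0043 ± 0.14 (adjusted p = 0.985). Beta-mannosidase (Manba) had 616 and 507 units at 0 h, 388 and 324 at 6 h, 587 and 425 at 12 h and 724 and 676 at 24 h. It fell at 6 h by 0.62 ± 0.16 (adjusted p = 0.0234), on the log2 scale, and its 24 h change of 0.31 ± 0.16 (adjusted p = 0.173) was not called.

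The acid alpha-glucosidase Gaa, which breaks down glycogen, was called at 24 h and not before. It had 766 and 811 units at 0 h, 728 and 791 at 6 h, 791 and 825 at 12 h and 1076 and 1089.5 at 24 h, with the 24 h arrays well clear of the other 6, and a 24 h change of 0.45 ± 0.10 (adjusted p = 0.00684). The alpha-mannosidase Man2b1 had 817 and 781 units at 0 h, 758 and 712.5 at 6 h, 726 and 806 at 12 h and 1032.5 and 924 at 24 h. It was called in the F-test (adjusted p = 0.0471) but not at 24 h (0.28 ± 0.11, adjusted p = 0.073). Fuca1, the alpha-fucosidase, was the 1 gene of the list called lower at 24 h. Its signal was 1479 and 1408 units at 0 h, 1197 and 1101 at 6 h, 954.5 and 1100.3 at 12 h and 1033 and 1071 at 24 h, and every later array lay below both 0 h arrays. It was lower at 12 h (-0.48 ± 0.11, adjusted p = 0.00772) and at 24 h (-0.45 ± 0.11, adjusted p = 0.00807), and of its 2 other probe sets 1 was lower at 24 h as well (-0.47 ± 0.13, adjusted p = 0.0141) and the other was not called there (-0.41 ± 0.15, adjusted p = 0.0592).

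On leaving out 1 array, the 6 h calls that ended were Hexa without either 0 h array or 6 h replicate 2 (adjusted p = 0.0511 to 0.147), Gla without 0 h replicate 2 (adjusted p = 0.106), Neu1 without any array of 0 h, 6 h or 24 h (adjusted p = 0.0599 to 0.225) and Manba without either 0 h array or 6 h replicate 2 (adjusted p = 0.054 to 0.193). Those at 12 h were Idua without any array of 0 h, 12 h or 24 h (adjusted p = 0.0526 to 0.218) and Fuca1 without 0 h replicate 1 or 12 h replicate 1 (adjusted p = 0.0613 to 0.075). Those at 24 h were Gaa without 0 h replicate 1 or 24 h replicate 2 (adjusted p = 0.0522 to 0.0679), Gusb without any array of 0 h or 24 h (adjusted p = 0.0666 to 0.128), Naglu without any array of 12 h or 24 h or 0 h replicate 1 (adjusted p = 0.0527 to 0.365), Neu1 without either 24 h array or 0 h replicate 2 (adjusted p = 0.0517 to 0.0848) and Fuca1 without 0 h replicate 1 or 24 h replicate 1 (adjusted p = 0.0616 to 0.0746).

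**Figure D4:**
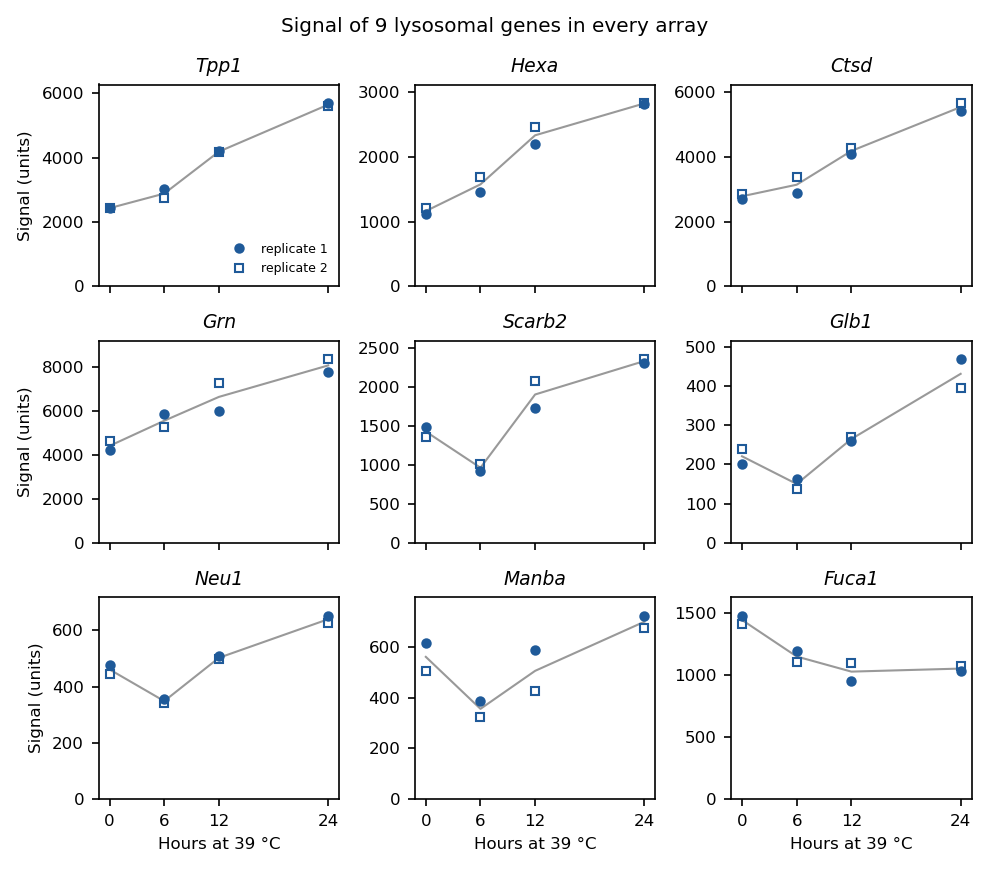
Signal in units (y axes, from 0) against hours at 39 °C (x axes) for 9 genes, with 1 point per array and a grey line through the 2-array means. Tpp1, Hexa, Ctsd and Grn climb over the 4 times, Scarb2, Glb1, Neu1 and Manba are lowest at 6 h, and Fuca1 stays under its 0 h level.

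Of the 3 sulfatases tested, Arsa alone was called, higher at 24 h (33.3%, beside 18.6% of all genes). Arylsulfatase A (Arsa), which removes sulfate from sulfatide, had 969.7 and 1015 units at 0 h, 884 and 967 at 6 h, 982 and 1091 at 12 h and 1432.5 and 1387 at 24 h, so that the arrays up to 12 h lay between 884 and 1091 units and the 24 h pair stood apart. Its 24 h change was 0.50 ± 0.10 (adjusted p = 0.00391). Ids and Sgsh, which take sulfate groups off heparan sulfate, were dim, with 105 to 218 units for Ids and 64.4 to 120.5 for Sgsh, and were not called at any time.

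In lipid breakdown 2 of 8 genes were higher at 24 h (25%), a share near the 18.6% of all tested genes. Prosaposin (Psap), the precursor of the saposins that present sphingolipids to their hydrolases, had 4609 and 4823 units at 0 h, 4879.9 and 4731 at 6 h, 6909 and 5795 at 12 h and 7796 and 7659.7 at 24 h. The 0 h and 6 h arrays overlapped, and those of 12 h and 24 h lay above them. The log2 change was 0.42 ± 0.10 (adjusted p = 0.0109) at 12 h and 0.71 ± 0.10 (adjusted p = 0.000319) at 24 h, and 0.64 ± 0.085 (adjusted p = 0.000217) at 24 h in its second probe set. Npc1, which passes cholesterol out of the lysosome, had 115 and 93.6 units at 0 h, 116 and 141.5 at 6 h, 188 and 118.5 at 12 h and 193 and 173 at 24 h. Its 24 h change was 0.70 ± 0.23 (adjusted p = 0.0337), and the 12 h arrays differed widely.

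The GM2 activator gene Gm2a, whose protein lifts GM2 ganglioside out for beta-hexosaminidase, had 1019 and 1068 units at 0 h, 959 and 886 at 6 h, 996 and 999.9 at 12 h and 1243 and 1268 at 24 h. The F-test called it (adjusted p = 0.0219), and at 24 h its brightest probe set was not called (0.26 ± 0.099, adjusted p = 0.0636) while its other one was higher (0.52 ± 0.14, adjusted p = 0.0148). Acid ceramidase (Asah1), acid sphingomyelinase (Smpd1), acid lipase (Lipa), the palmitoyl thioesterase Ppt1 and the cholesterol carrier Npc2 were not called at any time against 0 h. Their 24 h log2 changes lay between -0.04 for Asah1 and 0.32 for Lipa. Calls that ended on leaving out 1 array were Npc1 at 24 h without any array of 0 h or 24 h (adjusted p = 0.073 to 0.181) and Psap at 12 h without either 0 h array or 12 h replicate 1 (adjusted p = 0.0587 to 0.0983).

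Of the membrane protein genes 4 of 5 tested rose by 24 h (80%, beside 18.6% of all genes), and none of the 5 had a negative 24 h change. Scarb2 encodes LIMP-2, the receptor that carries glucocerebrosidase to the lysosome. Its signal was 1488 and 1361.5 units at 0 h, 913 and 1009 at 6 h, 1728 and 2072.5 at 12 h and 2306 and 2352 at 24 h, with the 6 h arrays well below the rest and the 24 h arrays above all others. The brightest probe set fell at 6 h (-0.56 ± 0.11, adjusted p = 0.00702) and was higher at 12 h (0.41 ± 0.11, adjusted p = 0.0234) and at 24 h (0.70 ± 0.11, adjusted p = 0.000774). The second probe set was not called at 6 h (0.09 ± 0.10, adjusted p = 0.589) and was higher at 24 h (1.11 ± 0.10, adjusted p = 2.2e-05), so the dip at 6 h was seen by 1 of the 2.

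Lamp1, a major glycoprotein of the lysosomal wall, had 5654 and 5379 units at 0 h, 6092 and 5615 at 6 h, 6301.5 and 6145 at 12 h and 7199 and 6648 at 24 h, with all 12 h and 24 h arrays above the 0 h arrays. Its 24 h change was small (0.33 ± 0.091, adjusted p = 0.0181). Mcoln1, the calcium channel TRPML1, had 575 and 567 units at 0 h, 637 and 559.5 at 6 h, 738 and 724.5 at 12 h and 781 and 745 at 24 h. The change was 0.34 ± 0.11 (adjusted p = 0.0435) at 12 h and 0.40 ± 0.11 (adjusted p = 0.0164) at 24 h, and 0.57 ± 0.12 (adjusted p = 0.00434) at 24 h in its second probe set.

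The 4 probe sets of Lamp2, the receptor of chaperone-mediated autophagy in one of its splice forms, disagreed. The brightest had 3686 and 4239.7 units at 0 h, 4472 and 3793 at 6 h, 5207 and 4713 at 12 h and 4810.5 and 4844.5 at 24 h, overlapping at 6 h, and was not called at 24 h (0.29 ± 0.11, adjusted p = 0.0673). The other 3 were called higher at 24 h, with log2 changes of 0.75 ± 0.098, 0.49 ± 0.091 and 0.52 ± 0.098, at adjusted p = 0.000192, 0.00191 and 0.00201. The second of these 3 was called lower at 6 h (-0.29 ± 0.091, adjusted p = 0.0455) and at 12 h (-0.28 ± 0.091, adjusted p = 0.0485) before it was higher. Over all genes of the list, 36 of the 65 tested probe sets were higher at 24 h (17.1% of all tested probe sets) and 2 were lower (15.8%). Of the 12 further probe sets of the 22 genes called higher, 10 were higher and 0 lower. The 10 include the second probe set of Idua, which was tested only through times at which it was high.

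Cd68, a glycoprotein of the LAMP family best known as a macrophage marker, had 176 and 225 units at 0 h, 175.5 and 143 at 6 h, 215 and 167 at 12 h and 321 and 299 at 24 h. The 24 h arrays lay above all others, and the change was 0.59 ± 0.18 (adjusted p = 0.0306). Of 15 macrophage and blood marker genes on the array 3 were bright enough to test (Csf1r, Cd14 and Laptm5), and limma called 0 of them at any time (at an unadjusted p under 0.05, 1 was higher at 24 h, Laptm5, with a log2 change of 0.87 and an adjusted p of 0.0918). The summed signal of all 15 was 552 and 719.7 units at 0 h, 716 and 724.5 at 6 h, 768 and 821.5 at 12 h and 695.5 and 749 at 24 h, and the defining marker Ptprc (CD45) averaged 14.4, 11.8, 18.4 and 16.9 units at these times, under the offset. Between 4 and 8 of the 15 lay under the offset in each array, and their part in the Cd68 result was not tested. Membrane protein calls that ended on leaving out 1 array were Lamp1 at 24 h without either 0 h array or 24 h replicate 1 (adjusted p = 0.0737 to 0.145), Cd68 at 24 h without either 24 h array or 0 h replicate 1 (adjusted p = 0.098 to 0.221), and Mcoln1 at 24 h without any array of 0 h or 24 h (adjusted p = 0.0645 to 0.106). Earlier ones were Mcoln1 at 12 h without any array of 0 h, 12 h or 24 h (adjusted p = 0.0707 to 0.181), Scarb2 at 12 h without either 0 h array or 12 h replicate 2 (adjusted p = 0.0717 to 0.171) and Scarb2 at 6 h without 0 h replicate 1 (adjusted p = 0.0807).

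Of the V-ATPase genes on the list, 2 of 3 were higher at 24 h (66.7%, beside 18.6% of all genes). Atp6v0d1, a subunit of the membrane sector, had 1882 and 1865 units at 0 h, 2251 and 2181 at 6 h, 2101 and 2282.5 at 12 h and 2325 and 2467 at 24 h, with every later array above the 0 h arrays. Its change was 0.35 ± 0.093 (adjusted p = 0.0136). The accessory subunit gene Atp6ap1 had 1609.6 and 1782 units at 0 h, 1602 and 1666 at 6 h, 1743 and 2119.8 at 12 h and 2443 and 2297 at 24 h, clear of 0 h at 24 h, with a change of 0.48 ± 0.11 (adjusted p = 0.00735). The regulatory subunit gene Atp6v1h stayed between 1420.3 and 1658 units in all 8 arrays, and its groups overlapped in each comparison. Both calls ended on leaving out 1 array, Atp6v0d1 at 24 h without either 0 h array or 24 h replicate 2 (adjusted p = 0.0807 to 0.11) and Atp6ap1 at 24 h without 0 h replicate 1 or 24 h replicate 1 (adjusted p = 0.0636 to 0.0824).

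Grn and Tfeb stand apart by function. Progranulin (Grn) is secreted and also delivered to lysosomes, where it is cut into granulins. Its signal was 4191 and 4604 units at 0 h, 5846 and 5235 at 6 h, 5970.3 and 7274 at 12 h and 7769 and 8333.5 at 24 h, and every later array lay above both 0 h arrays. It rose by 0.58 ± 0.11 (adjusted p = 0.00375) at 12 h and by 0.87 ± 0.11 (adjusted p = 0.000192) at 24 h on the log2 scale, and its 2 other probe sets gave 1.12 ± 0.089 (adjusted p = 7.03e-06) and 0.98 ± 0.089 (adjusted p = 1.79e-05) at 24 h. The call that ended on leaving out 1 array was Grn at 12 h without 0 h replicate 1 (adjusted p = 0.054). Tfeb, the gene of the transcription factor itself, was dim and uneven, with 144 and 121 units at 0 h, 197 and 118 at 6 h, 207 and 65.4 at 12 h and 153 and 109.6 at 24 h. Its arrays overlapped in each comparison, and the 24 h change was -0.02 ± 0.38 (adjusted p = 0.976).

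From 6 h on, the called changes between successive times were all upward. At 12 h against 6 h, 8 genes were higher (4.93% of all genes) and 0 lower (3.58%; also 0 at an unadjusted p under 0.05), with a list median of 0.206. They were Ctsd, Tpp1, Hexa, Gla, Glb1, Neu1, Psap and Scarb2. Fewer were called without any 1 array of 0 h, 12 h or 24 h, in the list and among all genes, with list medians of 0.194 to 0.237. Scarb2 had the largest difference, 0.96 ± 0.11 (adjusted p = 0.00102), which stayed called without each array, as did that of Tpp1. Glb1 differed by 0.74 ± 0.16 (adjusted p = 0.0204). Calls that ended on leaving out 1 array were Ctsd without any array of 0 h, 12 h or 24 h or 6 h replicate 1 (adjusted p = 0.0557 to 0.137), Hexa without 12 h replicate 2 (adjusted p = 0.0814) and Gla without any array of 0 h, 12 h or 24 h or 6 h replicate 2 (adjusted p = 0.058 to 0.149). Further such calls were Glb1 without either 12 h array or 6 h replicate 2 (adjusted p = 0.0505 to 0.0916), Neu1 without any array of 0 h or 12 h (adjusted p = 0.0506 to 0.0903) and Psap without any array of 0 h or 24 h or 12 h replicate 1 (adjusted p = 0.066 to 0.192).

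At 24 h against 12 h, 5 genes were higher (4.09% of all genes) and 0 lower (3.27%; also 0 at an unadjusted p under 0.05), with a list median of 0.288. They were Ctsd, Tpp1, Gaa, Glb1 and Arsa, with log2 differences of 0.66 ± 0.16 (adjusted p = 0.0347) for Glb1 and 0.43 ± 0.089 (adjusted p = 0.0185) for Tpp1. Differences were 0.44 ± 0.10 for Arsa, 0.41 ± 0.10 for Gaa and 0.40 ± 0.10 for Ctsd, at adjusted p = 0.0315, 0.038 and 0.0357. In 30 of the 39 genes both 24 h arrays lay above both 12 h arrays, a count that was not made over all tested genes. All 5 calls ended without any 1 array of 12 h or 24 h, and most ended without a 0 h array. Among all genes too, fewer were called higher in each of these fits. The list median in them was 0.265 to 0.328.

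The remaining genes of the lysosomal pathway were read from 5 further lists, chosen with earlier results of these data known. Of 82 tested genes, 7 were higher (8.54%, beside 9.15% of all genes) and 4 lower (4.88%, beside 9.33%) at 6 h. The 6 h share of higher genes was near that of all genes. At 12 h 22 were higher (26.8%, beside 13.3%) and 6 lower (7.32%, beside 12%). At 24 h 28 were higher (34.1%, beside 18.6%) and 6 lower (7.32%, beside 16.6%). The median log2 change at 24 h was 0.235. Other V-ATPase subunits gave 7 of 13 higher (53.8%) and 0 lower at both 12 h and 24 h by limma, and 0 lower also at an unadjusted p under 0.05. Sorting to the lysosome gave 7 of 23 higher (30.4%) and 3 lower (13%) at 24 h. Other hydrolases and membrane proteins gave 9 of 30 higher (30%) and 3 lower (10%), with the adaptor gene Gga1, listed here though it belongs to sorting, among the 3. TFEB relatives and nutrient sensors gave 3 of 12 higher (25%, near the 18.6% of all genes) and 0 lower, and cathepsin inhibitors 2 of 4 and 0. The higher counts include Ap1s2 (sorting) at 6, 12 and 24 h and Serpinb1a (cathepsin inhibitors) at 12 and 24 h. Both had 0 h means under the filter of about 74 units and were tested only through times at which they were high.

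Igf2r encodes the cation-independent mannose 6-phosphate receptor, which delivers newly made hydrolases to the lysosome. Its signal was 1597 and 1404 units at 0 h, 1643 and 1653 at 6 h, 2665 and 2607 at 12 h and 5246 and 4887 at 24 h, with no overlap between 6 h, 12 h and 24 h. The log2 change was 0.81 ± 0.097 (adjusted p = 0.000242) at 12 h and 1.74 ± 0.097 (adjusted p = 9.17e-07) at 24 h, a 3.35-fold rise. It differed by 0.67 ± 0.097 (adjusted p = 0.00295) at 12 h against 6 h and by 0.94 ± 0.097 (adjusted p = 0.000901) at 24 h against 12 h. Ap1s2, a subunit of the AP-1 adaptor that loads the receptor into vesicles, was up at every later time: 1.36 ± 0.21, 1.90 ± 0.21 and 1.36 ± 0.21 at 6, 12 and 24 h (adjusted p = 0.00153, 0.000133 and 0.000563). It had 201 and 141 units at 24 h, against 61.3 and 44.9 at 0 h. Both 0 h arrays lay under the filter of about 74 units. The gene was tested only through the times at which it was high. Its relative Ap1s1 was lower at 12 h against 6 h (-0.71 ± 0.11, adjusted p = 0.00536), where Ap1s2 was not called (0.54 ± 0.21, adjusted p = 0.133). Against 0 h, Ap1s1 had an uncalled positive change at 6 h (0.35 ± 0.11, adjusted p = 0.0523). It was lower than 0 h at 12 h (-0.35 ± 0.11, adjusted p = 0.0431) and 24 h (-0.52 ± 0.11, adjusted p = 0.00484).

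Serpinb1a, an intracellular serine protease inhibitor, had 51.0 and 53.3 units at 0 h, 49.5 and 123 at 6 h, 129.9 and 164 at 12 h and 254.5 and 392 at 24 h. Its 0 h arrays too lay under the filter. It was tested only through the later times at which it was high. It changed by 1.18 ± 0.32 (adjusted p = 0.0196) at 12 h and 2.19 ± 0.32 (adjusted p = 0.00037) at 24 h. Galc, which removes galactose from galactosylceramide, was higher at 24 h against 12 h (0.78 ± 0.13, adjusted p = 0.00628), as was Gnptab, the phosphotransferase that makes the mannose 6-phosphate tag (0.59 ± 0.16, adjusted p = 0.0451). Hgsnat, the acetyltransferase of heparan sulfate breakdown, was lower at all later times. It had 920.4 and 897 units at 0 h, 421.5 and 597 at 6 h, 425.5 and 385 at 12 h and 499 and 573 at 24 h. Its log2 changes were -0.83 ± 0.16, -1.12 ± 0.16 and -0.74 ± 0.16 (adjusted p = 0.00471, 0.000551 and 0.00392). Atp6v0a1, a V-ATPase subunit, dipped at 6 h (-0.78 ± 0.18, adjusted p = 0.0133) and differed by 0.92 ± 0.18 (adjusted p = 0.0137) at 12 h against 6 h.

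As a check of the labelled cell type, 10 of 17 Sertoli markers on the array passed the filter, among them Sox9, Wt1, Gata4, Clu, Krt18 and Vim, while Amh, Fshr, Dhh, Cldn11, Gdnf, Rhox5 and Shbg were too dim to test. Of the 10, 2 were higher at 6 h (20%, beside 9.15% of all genes), Inhbb (0.66, adjusted p = 0.00979) and Kitl (0.70, adjusted p = 0.00757). Wt1 was lower at 6 h (-0.64, adjusted p = 0.0446), a share of 10% beside 9.33%. All its later arrays lay below both 0 h arrays. At 12 h Clu and Krt18 were higher (0.68, adjusted p = 0.00658, and 0.39, adjusted p = 0.0216). At 24 h Clu and Inhbb were higher (1.44, adjusted p = 3.63e-05, and 0.51, adjusted p = 0.0188). The share higher was 20% at 12 h and at 24 h, beside 13.3% and 18.6% of all genes. The summed signal of all 17 ran from 22484 to 28728 units, most of it Vim (15078 to 19974 units). Of 6 germ cell markers 1 was bright enough to test, Kit, which was higher at 24 h by 1.96 ± 0.17 (adjusted p = 1.36e-05). It had 1224.7 and 1222.3 units at 24 h, against 253 and 349 at 0 h. The 6 summed to 1396 and 1349 units at 24 h, against 380 and 493 at 0 h. The other 5, Ddx4 and Dazl among them, stayed too dim to test. Of 4 Leydig cell markers 1 was tested, Star, which was higher at 24 h by 1.18 ± 0.24 (adjusted p = 0.00327). These 4 summed to 248 and 326 units at 24 h, against 96.8 and 158 at 0 h. Cyp11a1 and Cyp17a1 stayed under the offset in all 8 arrays. Hsd3b1, also too dim to test, had 36.2 and 33.5 units at 12 h, against 5.2 and 8.4 at 0 h. The part of these markers in the lysosomal results was not tested. Arrays of the same time correlated with r = 0.9788 to 0.9858, and arrays of different times with r = 0.9666 to 0.9787. These values are over all 22626 probe sets left after controls, including those too dim to test. Probe sets are not independent replicates.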

How the data were processed

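The samples were 8 RNA samples of TTE3 cells, grouped by the hours at the nonpermissive temperature in their titles, each on 1 Affymetrix array. By their titles, the 0 h samples had spent 0 h at that temperature. The deposited intensities are linear probe set signals. Their 2% trimmed mean lay between 500.18 and 500.2 on each array, which shows a scaling by the depositors. The software is not given in the sources used, and detection calls were not used.

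Probe sets were named through the platform annotation and RefSeq gene identifiers (GRCm38.p6, for names only). After 64 controls, 20380 of 22626 probe sets had 1 symbol, 691 had several and 1555 none here, and probe sets with several symbols named no gene. The offset is the 20th percentile of all values and the filter the 40th percentile of mean log2. No further normalization was applied, as the arrays' median log2 values differed by 0.14 at most. The linear model of limma 3.58.1 (R 4.3.3), with trended variance moderation and 4 residual and 7.22 prior degrees of freedom, gave 2-sided moderated contrasts and the F-test. The fit was checked on simulated data. Only 2 arrays per time limit the precision.

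The genes, lists and tests were chosen with earlier results of these data known. Named genes are those called in the F-test or against 0 h, and, of the further lists, the 3 largest called changes per comparison. The alternatives changed the offset, normalization, filter, replicate block, probe set, samples in the fit and each array in turn. A fit without an array leaves a time with 1 sample, assumed to vary like the others.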

Additional observations from a re-analysis of the deposited data

How the results depend on the processing

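No direction of a called gene turned under the alternatives run on its brightest probe set. Among other tested probe sets of called genes, the 2 dim ones of Ctsb (-0.39 and -0.22 at 12 h, -0.07 and -0.03 at 24 h) and the second of Scarb2 at 6 h (0.09) had the opposite sign, uncalled. Of the 23 calls at 24 h against 0 h, 11 stood in every alternative that tested their brightest probe set (Ctsa, Ctsb, Ctsd, Tpp1, Hexa, Glb1, Idua, Arsa, Psap, Scarb2 and Grn), as did 3 of 11 at 12 h (Ctsd, Tpp1 and Hexa), 1 of 8 at 12 h against 6 h (Scarb2), and 0 of 5 at 6 h and 0 of 5 at 24 h against 12 h. Leaving out 1 array at a time, the 24 h count of higher genes ran from 12 (without 0 h replicate 1) to 24, with 13 without either 24 h array, and of lower genes from 0 to 1. The 12 h counts ran from 4 to 13 higher, lowest without either 0 h array, and from 0 to 3 lower. The 6 h counts ran from 0 to 3 higher and from 1 to 4 lower. Counts at 12 h against 6 h ran from 3 to 7, at 24 h against 12 h from 0 to 8, and in the F-test from 13 to 28. Centring arrays on their medians gave 14 higher at 24 h (13.8% of all genes), ending Lgmn, Gusb, Naglu, Npc1, Lamp1, Cd68, Mcoln1 and Atp6v0d1. It also gave 4 lower at 12 h (14.5% of all genes) and 2 higher at 24 h against 12 h (2.95%). It gave 63.6% higher among the 12 h calls, and quantile normalization, with 3 lower at 12 h, gave 75%, against 90.9% as reported. Among all genes called at 24 h, 38.6% were higher with centring, against 52.7% without it. With no filter, which adds the 5 dim genes, 2 were higher (Hexa and the dim Ctss) and 2 lower at 6 h, 4 higher at 12 h against 6 h and 3 at 24 h against 12 h. Counting any probe set of a gene gave 2 lower at 12 h and 11 higher at 24 h against 12 h, and fitting the compared times alone gave 3 lower at 12 h and 1 higher at 12 h against 6 h. The causes were not tested beyond the smaller number of samples. The filter on mean signal left 5 of the 44 genes untested.

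The titles number the samples of a time 1 and 2. Deviations of same-numbered samples correlated weakly and positively, with r = 0.0496 to 0.18 over the 6 pairs of times. Whether same-numbered samples share more than a number was not tested. With the replicate block 22 were higher and 1 lower at 24 h, 13 and 1 at 12 h and 2 and 4 at 6 h, 10 were higher at 12 h against 6 h, 7 at 24 h against 12 h, and 27 were called in the F-test.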
